A study of Mus musculus with 2 samples.

Results

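The miR-34 family of microRNAs (miRNAs) is described here in the retina of newborn mice. Its members were chosen by name, as the 5p and 3p arms of miR-34a, miR-34b and miR-34c, which gives 6 arms of 3 hairpins. The count table held 1358 mature miRNAs, and 5 of the 6 arms were among them; miR-34a-3p was not analysed here. The series held 1 group, wild-type CD-1 mice (an outbred strain) on postnatal day 0, with 2 libraries of small RNA from retina, called replicate 1 and replicate 2. No treatment or altered allele is given for these mice. Whether the replicates came from separate animals is not stated, and the spread between them may be only technical. With a single group there was no condition to compare.

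A miRNA is cut from a hairpin precursor as a duplex of a 5p and a 3p arm, and usually only one of them is kept in the silencing complex. The kept arm pairs with messenger RNAs through its seed, bases 2 to 8 from the 5′ end. The miR-34 genes are known as direct transcriptional targets of p53, the tumour suppressor induced by DNA damage, and their 5p arms repress genes of the cell cycle and of survival, such as Bcl2, Cdk6 and Met. miR-34a comes from its own gene and is the member most studied in brain and in tumours. miR-34b and miR-34c come from a shared primary transcript and, together with the related miR-449 cluster, are best known from multiciliated cells and male germ cells.

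The sequences show what the members share and where they differ. The first set holds the mature entries of RefSeq (GRCm38.p6), with the seed in capitals. An entry matched 5 of the 6 arms, and miR-34c-5p is shown by its read.
miR-34a-5p: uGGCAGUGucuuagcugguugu
miR-34b-5p: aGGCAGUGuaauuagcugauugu
miR-34a-3p: aAUCAGCAaguauacugcccu
miR-34b-3p: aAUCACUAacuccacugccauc
miR-34c-3p: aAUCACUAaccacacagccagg
The most frequent read of each 5p arm, as the authors' table gives it, was identical in both libraries. The capitals mark bases 2 to 8 of the read.
miR-34a-5p: tGGCAGTGtcttagctggttgtt
miR-34b-5p: tAGGCAGTgtaattagctgatt
miR-34c-5p: aGGCAGTGtagttagctgattgc
miR-449a-5p: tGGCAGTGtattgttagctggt

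The annotated 5p arms of miR-34a, miR-34b and miR-34c shared the 8 bases GGCAGUGU, from base 2 to base 9, and so had a common seed. Over the 1325 miRNAs of the table with a known start, the seed GGCAGUG was found in 5 rows, the 3 miR-34 5p arms with miR-449a-5p and miR-449c-5p. The seed of the 3p arms, AUCACUA, was found only in miR-34b-3p and miR-34c-3p among these 1325. Over the whole arm, seed included, the annotated miR-34b-5p and the miR-34c-5p read were identical at 21 of 23 positions. They differed, outside the seed, by A11G and T23C, with the miR-34b base first and positions counted from 1 at the annotated 5′ end of miR-34b-5p. The 3p arms of miR-34b and miR-34c were identical at 17 of 22 positions.

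Each most frequent read of a miR-34 arm matched its own hairpin without mismatch. The closest pair was miR-34b-5p, whose read differed from the Mir34c hairpin at 1 base, and miR-34c-5p, whose read differed from the Mir34b hairpin at 2. Whether reads were exchanged between these arms in counting was not tested. All 5 arms held whole-number counts, so none showed the split of reads over several miRNAs seen elsewhere in the table.

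On GRCm38, Mir34a lies on the plus strand of chromosome 4 at 150068454 to 150068555. Its last 17 bases overlap the exon of Gm37795, a transcript of unclassified type in GENCODE M21. Mir34b (51103562 to 51103645) and Mir34c (51103034 to 51103110) lie on the minus strand of chromosome 9, with 451 bases between the hairpins. Both lie in an intron of the protein-coding gene Btg4, which is transcribed from the opposite strand, and in no other annotated transcript of their own strand. The RefSeq hairpins of this cluster are shown because the use of their arms was opposite, with the most frequent reads in capitals.
Mir34b: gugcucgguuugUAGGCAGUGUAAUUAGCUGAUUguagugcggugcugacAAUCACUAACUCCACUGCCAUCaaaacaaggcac
Mir34c: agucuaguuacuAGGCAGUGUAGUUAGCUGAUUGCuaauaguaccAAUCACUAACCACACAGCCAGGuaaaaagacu

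The miR-34 family took a small share of the counts in newborn retina, and nearly all of that share was miR-34c-5p. The 5 arms together had 1552 of 8337902 counts in replicate 1 and 1657 of 8118208 in replicate 2. Levels are counts scaled to the table total (CPM), with exact (Clopper-Pearson) 95% intervals that cover counting error only. The family total was 186 CPM (interval 177 to 196) and 204 CPM (194 to 214) in the 2 libraries, a share of 0.0195% ± 0.0013 of all counts (SD, n = 2). miR-34c-5p made up 92.1% of the family's counts in replicate 1 and 90.8% in replicate 2.

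miR-34c-5p, the arm of the miR-34c hairpin with the seed GGCAGUG, had 1429 counts in replicate 1 and 1505 in replicate 2. These are levels of 171 CPM (163 to 181) and 185 CPM (176 to 195), a mean of 178 ± 9.9 CPM (SD, n = 2) and rank 147 of 1358 miRNAs. The libraries lay close together, and their counting intervals overlapped. miR-34b-3p, the 3p arm of the neighbouring hairpin, was next with 71 and 104 counts, which is 8.52 CPM (6.65 to 10.7) and 12.8 CPM (10.5 to 15.5). Its mean was 10.7 ± 3.04 CPM at rank 359, and replicate 2 was the higher library.

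miR-34a-5p, the arm most often studied as a p53 target, had 28 and 24 counts, or 3.36 CPM (2.23 to 4.85) and 2.96 CPM (1.89 to 4.4). Its mean of 3.16 ± 0.284 CPM placed it at rank 483. miR-34b-5p had 17 and 14 counts, or 2.04 CPM (1.19 to 3.26) and 1.72 CPM (0.943 to 2.89), with a mean of 1.88 ± 0.222 CPM at rank 552. Both were therefore rare, and both read slightly lower in replicate 2 with overlapping intervals. miR-34c-3p, the opposite arm of the most abundant member, was the lowest with 7 and 10 counts, or 0.84 CPM (0.338 to 1.73) and 1.23 CPM (0.591 to 2.27). Its mean was 1.04 ± 0.277 CPM at rank 630.

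**Figure D1:**
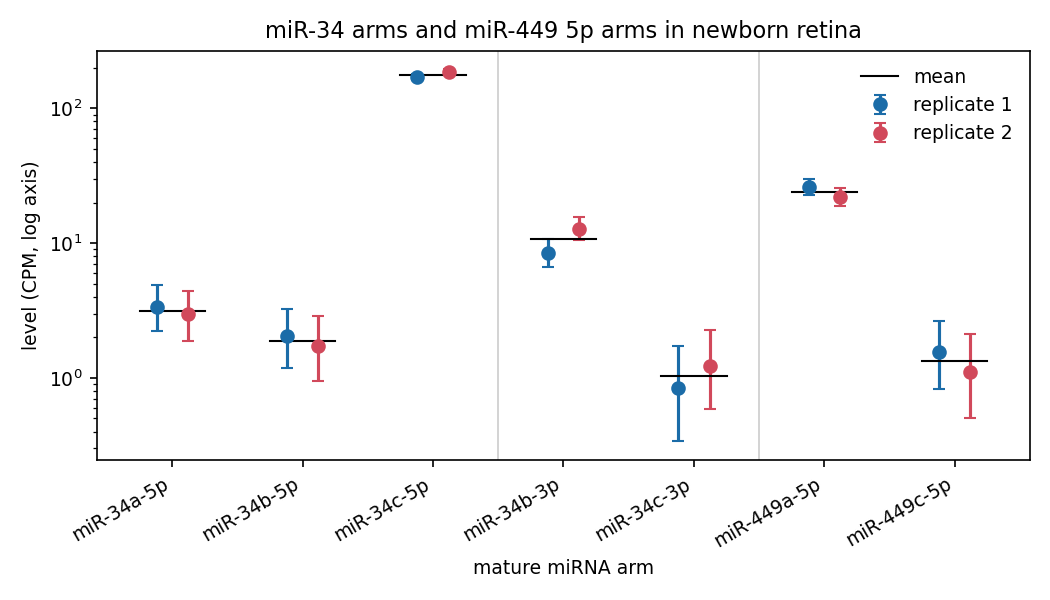
Level of each miR-34 arm and of the miR-449 5p arms in the 2 libraries, in CPM on a log axis; points are libraries, error bars are exact 95% counting intervals and lines are means. miR-34c-5p, at 171 and 185 CPM, stands above every other arm shown, and miR-34c-3p is at about 1 CPM.

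The order of the 5 arms by count was the same in both libraries. Counts of miR-34c-5p exceeded those of miR-34b-3p 20.1-fold (interval 15.9 to 25.9) in replicate 1 and 14.5-fold (11.9 to 17.8) in replicate 2. miR-34b-3p exceeded miR-34a-5p 2.54-fold (1.62 to 4.08) and 4.33-fold (2.76 to 7.07). The lower neighbours could not be ordered. miR-34a-5p over miR-34b-5p was 1.65-fold (0.871 to 3.21) and 1.71-fold (0.852 to 3.58), and miR-34b-5p over miR-34c-3p was 2.43-fold (0.957 to 6.93) and 1.4-fold (0.578 to 3.52). All 4 of these intervals included equal counts.

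Among the 5p arms with the common seed, miR-34c-5p exceeded miR-34a-5p 51-fold (35.2 to 77.1) in replicate 1 and 62.7-fold (42.0 to 98.2) in replicate 2. On the log2 scale, with 0.5 added to each count, the mean ratio was 5.79 ± 0.21 (SD, n = 2). Over miR-34b-5p the ratio was 84.1-fold (52.3 to 145) and 107.5-fold (63.9 to 197), a mean log2 ratio of 6.53 ± 0.24. A ratio between different miRNAs also holds the yield with which each sequence was ligated to the adapters, which was not measured.

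Of the 5 rows with the annotated seed GGCAGUG, miR-34c-5p held 83.8% of the counts in replicate 1 (interval 82.0 to 85.5%) and 86.9% in replicate 2 (85.3 to 88.5%). miR-449a-5p, from a hairpin in an intron of Cdc20b on the plus strand of chromosome 13 (mature arm 113037549 to 113037570), was the other sizeable source. It had 218 and 179 counts, or 26.1 CPM and 22.0 CPM, a mean of 24.1 ± 2.9 CPM at rank 290. This was 7.79-fold (5.24 to 11.99) and 7.46-fold (4.86 to 11.9) above miR-34a-5p in the 2 libraries. miR-449c-5p had 13 and 9 counts, a mean of 1.33 ± 0.319 CPM. Its most frequent read in both libraries had the seed but was 26 bases long, 5 more than the RefSeq entry. That read differed from its own hairpin at 1 base. miR-34a-5p gave 1.64% and 1.39% of the counts of these rows, and miR-34b-5p gave 0.997% and 0.809%. These shares rest on the annotated start, which the most frequent miR-34b-5p read did not have.

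**Figure D2:**
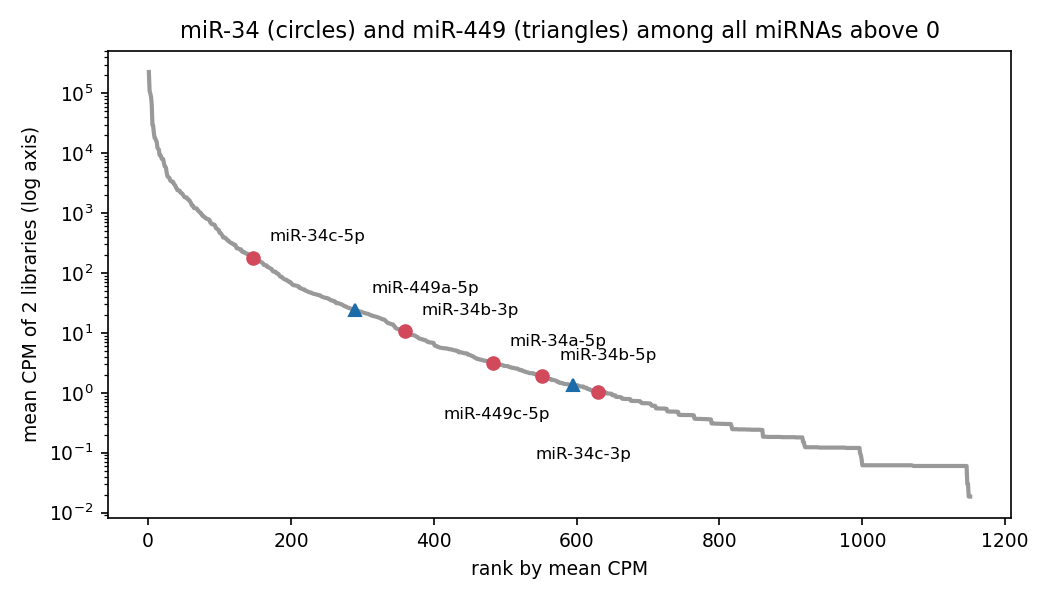
Mean level of every miRNA above 0 against its rank, with CPM on a log axis; circles are miR-34 arms and triangles are miR-449 5p arms. miR-34c-5p lies at rank 147 and the other 4 miR-34 arms between ranks 359 and 630.

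The neighbouring hairpins of the miR-34b and miR-34c cluster were read from opposite arms. In miR-34c the 5p arm had 1429 counts against 7 for the 3p arm in replicate 1, and 1505 against 10 in replicate 2. This is a ratio of 204 (interval 98.8 to 509) and 150.5 (81.6 to 314). The log2 ratio of 5p over 3p was 7.57 and 7.16, a mean of 7.37 ± 0.29. In miR-34b the 3p arm was the larger, with 71 counts against 17 and 104 against 14. It exceeded the 5p arm 4.18-fold (2.43 to 7.57) and 7.43-fold (4.23 to 14.1), and the log2 ratio of 5p over 3p was -2.03 and -2.85, a mean of -2.44 ± 0.58.

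Both arm differences were called. Equal counts of the arms were tested with an exact binomial test (two-sided), adjusted by the Benjamini-Hochberg method over the 312 hairpins with both arms and at least 10 counts in each library. For miR-34b the adjusted p was 7.08e-09 in replicate 1 and 6.03e-18 in replicate 2 in this exact test. For miR-34c it was 0 to machine precision in both libraries. A call also required the same sign in both libraries and a mean log2 ratio over 2 SD. These p-values cover counting error only. The 2 arms of a hairpin are different sequences, so their ratio also holds the ligation yield of each, which was not measured. A called difference is common, since 89.4% of the 312 hairpins were called, 46.2% with the 5p arm higher and 43.3% with the 3p arm higher.

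A ratio of 4-fold or more in both libraries was reached by 77.2% of the 312 hairpins. It was reached by miR-34c for the 5p arm, as in 40.4% of hairpins, and by miR-34b for the 3p arm, as in 36.9%. miR-34b passed this threshold narrowly in replicate 1. Of the 312 hairpins, 42 had a higher 5p-over-3p ratio than miR-34c and 112 a lower one than miR-34b, so neither was extreme. The log2 ratios of the 2 hairpins were 9.6 apart in replicate 1 and 10.0 apart in replicate 2. Opposite arms at 4-fold or more in hairpins with the same miRNA number were seen in 5 of the 24 numbers with several hairpins in the comparison, miR-34 among them. miR-34a could not be placed, as only its 5p arm was analysed. The related miR-449a had 218 and 179 counts for the 5p arm against 17 and 5 for the 3p arm, a mean log2 ratio of 4.34 ± 0.98 towards 5p, also called.

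**Figure D3:**
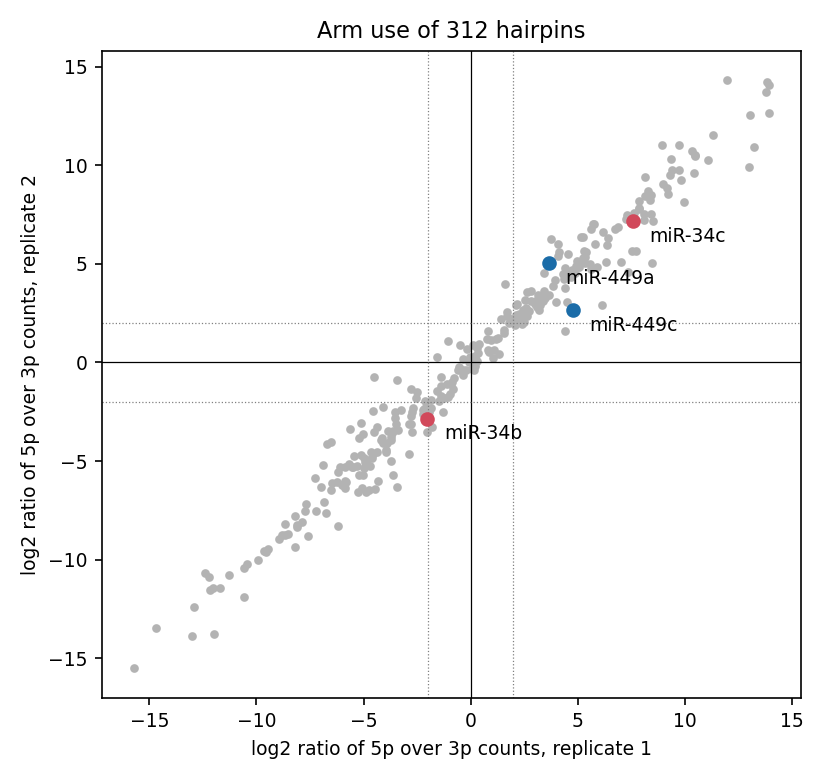
Log2 ratio of 5p over 3p counts in replicate 1 (horizontal) and replicate 2 (vertical) for 312 hairpins, with dotted lines at a 4-fold ratio. miR-34c lies at 7.57 and 7.16 on the 5p side and miR-34b at -2.03 and -2.85 on the 3p side, while both miR-449 hairpins lie on the 5p side.

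Seen by hairpin, the arms of Mir34b gave 88 of the 1524 counts of the cluster in replicate 1 (5.77%, interval 4.66 to 7.07%) and 118 of 1633 in replicate 2 (7.23%, 6.02 to 8.59%). The cluster was thus represented mainly by miR-34c. The 3p arms ran the other way, since miR-34b-3p exceeded miR-34c-3p 10.1-fold (4.68 to 26.1) in replicate 1 and 10.4-fold (5.43 to 22.3) in replicate 2. The counts of the rows with the annotated seed AUCACUA were therefore 91.0% and 91.2% miR-34b-3p.

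The ends of the reads differed between members. The most frequent miR-34b-5p read, printed above, started 1 base before the miRBase entry in both libraries, at the U that precedes the annotated start in the hairpin. Its bases 2 to 8 were AGGCAGT in place of the family seed, a run found at these positions in no other miRNA with a read in both libraries (963 in all). Of 581 miRNAs with at least 10 counts in each library, 39 (6.71%) started earlier than miRBase in both libraries and 22 (3.79%) by exactly 1 base. Among the 225 with 10 to 100 counts in each library, the range of miR-34b-5p, 24 (10.7%) started earlier and 10 (4.44%) by exactly 1 base. The reads of miR-34a-5p, miR-34c-5p, miR-34b-3p and miR-34c-3p started at the miRBase base, as did 84.5% of the 581 and 75.6% of the 225. The miR-34a-5p read was 1 base longer at the 3′ end than the entry, and this base is present in the hairpin. Added 3′ bases were found in 25.5% of the 581 and in 33.3% of the 225, whose range of counts also holds miR-34a-5p. The table gives no count for the most frequent read, so the share of miR-34b-5p counts with the earlier start is not known.

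**Figure D4:**
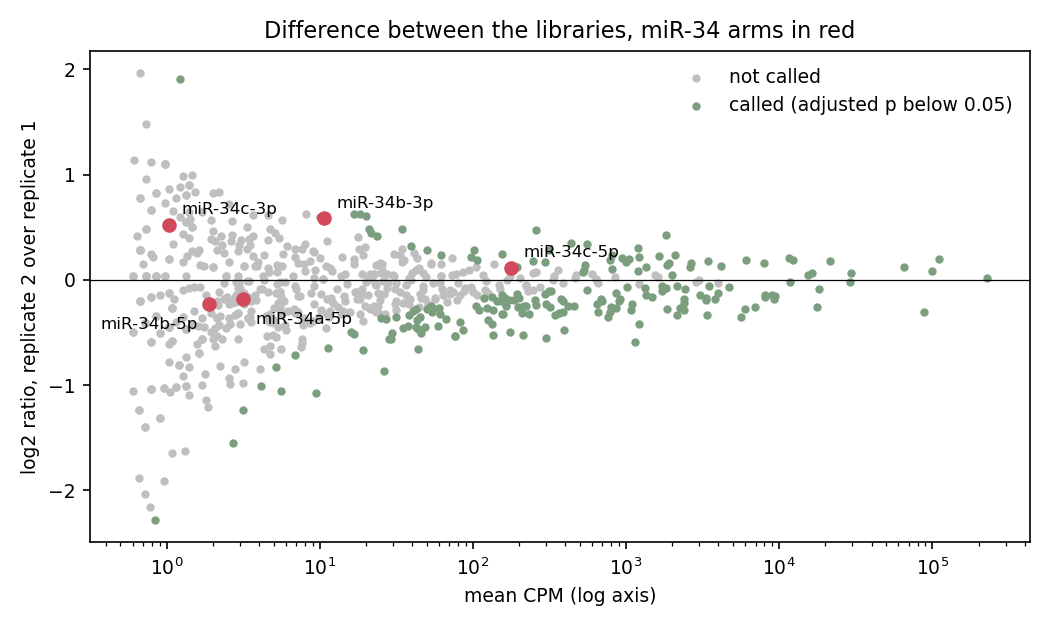
Log2 ratio of replicate 2 over replicate 1 against the mean CPM (log axis) for 710 miRNAs, with called miRNAs in green and the 5 miR-34 arms in red. By table totals miR-34b-3p is the only miR-34 arm called, at 0.59, and miR-34c-5p lies at 0.11.

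Between the libraries, 1 of the 5 arms differed beyond counting error, miR-34b-3p, which was 1.5-fold higher in replicate 2 (log2 ratio 0.59). Its adjusted p was 0.0312 in the exact two-sided binomial test, adjusted over the 710 miRNAs with at least 10 counts in all. This test compares libraries, not conditions, and 27.9% of the 710 were called, 8.31% as higher in replicate 2 and 19.6% as lower. The call was lost when miRNAs under 10 counts were also tested (adjusted p = 0.0501, exact test). The log2 ratio of miR-34c-5p was 0.11 (adjusted p = 0.104, exact test), and it was called at 0.23 with TMM scaling and at 0.22 with DESeq2 scaling (adjusted p = 9.87e-05 and 3.43e-04, exact tests). Of the 710, 26.3% were called with TMM and 26.6% with DESeq2 scaling. The median log2 ratio of all 710 was -0.12 by table totals and -0.0037 by TMM. The log2 ratios of miR-34a-5p (-0.18), miR-34b-5p (-0.23) and miR-34c-3p (0.52) were not called under any of these scalings, and their counts leave little power. The coefficient of variation beyond counting error over all miRNAs was 0.104 in edgeR.

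Other miRNAs that p53 is known to raise, or to help process, were present at widely different levels. Of the 17 arms on this list, 13 had a row, 11 were detected in both libraries and 2 (miR-192-3p and miR-143-5p) were at 0 in both. A mean of 10 CPM was reached by 7 of the 13 (53.8%), beside 26.9% of all 1358 miRNAs. The median of the detected arms was 61.7 CPM, beside 3.65 CPM for all 924 miRNAs detected in both libraries. The miR-34 family had all 5 rows detected, 2 at 10 CPM or more, and a median of 3.16 CPM. These sets are not alike, since the list was chosen by name and the 924 hold every arm detected in both libraries. Their levels were not tested against each other.

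The highest p53-linked arms were miR-192-5p, which represses cell-cycle genes, at 942 and 1061 CPM (1001 ± 84.4) and miR-16-5p, a repressor of cyclins, at 944 and 785 CPM. miR-22-3p followed at 210.1 ± 26.5 CPM, above miR-34c-5p, whereas miR-194-5p (134 ± 10.5 CPM), miR-107-3p (87.2 ± 4.54 CPM), miR-143-3p (61.7 ± 4.6 CPM) and miR-15a-5p (23.3 ± 3.51 CPM) were below it. miR-200c-3p (2.3 ± 0.644 CPM) and miR-215-5p (2.15 ± 0.26 CPM) lay between miR-34a-5p and miR-34b-5p in mean level. miR-145a-3p (0.977 ± 0.534 CPM) and miR-145a-5p (0.183 ± 0.0894 CPM, from 1 and 2 counts) lay below the mean of every miR-34 arm. The levels describe a single group and carry no measure of p53 activity.

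As a check of the labelled tissue, all 5 neural retina markers were detected in both libraries, miR-9-5p, miR-124-3p, miR-182-5p, miR-183-5p and miR-96-5p, with a summed level of 398217 to 419768 CPM. This sum was mostly miR-9-5p (mean 227200 CPM), miR-182-5p (110064 CPM) and miR-183-5p (65116 CPM). miR-124-3p was far lower, at 701 CPM in replicate 1 and 597 CPM in replicate 2, below endothelial miR-126a-3p in each library. The multiciliated epithelium list, of 3 names, had 2 detected, miR-449a-5p and miR-449c-5p, summing to 27.7 and 23.2 CPM; miR-449b was not analysed here. Markers of other cells were also present. The pigment epithelium pair summed to 3000 to 3789 CPM, but nearly all of it was miR-204-5p, at 2994 to 3784 CPM. The other marker of the pair, miR-211-5p, was at only 5.3 to 5.94 CPM. Endothelial miR-126a-3p was at 840 to 969 CPM, and the muscle pair miR-206-3p and miR-1a-3p summed to 87.4 to 90.5 CPM. Lens and surface epithelial miR-184-3p was at 738 to 869 CPM with miR-205-5p at 0. miR-451a of red blood cells had 3 counts in each library, and both leukocyte markers were at 0. The red blood cell, leukocyte and muscle lists hold only 1 or 2 miRNAs each, so they do not show that cells were absent. Outside the lists, miR-486a-5p, also of red blood cells, had a mean of 62.3 CPM, but miR-144-3p only 0.182 CPM. Leukocyte miR-142a-3p was at 2.01 CPM and muscle miR-133a-3p at 1.37 CPM. The part of these cells in the miR-34 levels was not tested. In RNA of a whole tissue, fewer cells of a type and less RNA per cell cannot be told apart.

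The neighbours in rank by mean CPM are given with their absolute difference in mean log2 CPM over the 2 libraries. By that difference other miRNAs can be nearer. Next above miR-34c-5p were miR-652-3p (186 ± 17.7 CPM, difference 0.06) and miR-16-1-3p (192 ± 11.8 CPM, 0.11), and next below were miR-219a-1-3p (175 ± 3.39 CPM, 0.025) and miR-369-5p (175 ± 42.2 CPM, 0.051). Around miR-34b-3p were miR-1843a-3p (10.9 ± 0.722 CPM, 0.066), miR-467b-5p (10.9 ± 2.46 CPM, 0.045), and miR-669a-5p and miR-669p-5p, which had equal split counts (10.5 ± 0.0266 CPM each, 0.0094).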

How the data were processed

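Small RNA was sequenced from 2 libraries of newborn wild-type retina, which form 1 group. Per the labels' protocols, RNA of 18 to 30 nt was gel-purified and ligated to adapters. The submitters' processing notes name bcl2fastq 2.17.1.14. The aligner, counter and build were not given in the sources used here. The authors deposited estimated counts (6.77% and 5.96% of values not whole), CPM rounded to 1 decimal, and a text table of each miRNA's most frequent read, compared, per the file headers, with miRBase 21. The deposited CPM columns sum to 88.5% of a whole library, so CPM was recomputed here from the table totals, 8337902 and 8118208, and is 1.13 times the deposited CPM. A count of 0 allows 0.36 and 0.37 CPM (3 counts of the total). Amplified reads are not independent molecules, whereas the intervals and p-values treat each read as independent. They cover the counting error of reads only and may understate the uncertainty.

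Counts were rounded to whole numbers for exact binomial tests (SciPy 1.17.1, statsmodels 0.14.6, threshold 0.05 after Benjamini-Hochberg adjustment over all hairpins or miRNAs past the count minimum of 10, 312 and 710). edgeR 4.0.16 and DESeq2 1.42.0 in R 4.3.3 gave scalings and, for edgeR, the spread. Tests were checked on simulated data that held counting error only, so the check does not cover the further spread between these libraries. The members, lists and tests were chosen with earlier results of these data known. Named miRNAs are the family, its seed relatives, the p53-linked list, cell markers, and the 2 miRNAs next above and below the 2 highest members in mean CPM; the other 4 miRNA numbers with opposite arms are not named. Sequences and hairpins are RefSeq's (GRCm38.p6), of which 1152 of 1358 names matched; their overlap with genes is from GENCODE M21.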

Additional observations from a re-analysis of the deposited data

How the results depend on the processing

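Arm differences of miR-34b and miR-34c kept their direction and stayed called under another pseudocount and under other count minimums. The pseudocount does not enter the binomial test, and a count minimum changes only the adjustment. Both were also called in each library alone, which adds no check, because the main call already required each library to pass. Without a library, every value is that of the other library. The arm ratio ranged from -2.85 to -2.03 on the log2 scale for miR-34b and from 7.16 to 7.57 for miR-34c. With the authors' deposited CPM, whose library total is larger, the mean levels were 2.8 for miR-34a-5p, 1.65 for miR-34b-5p and 157.9 for miR-34c-5p. At a 10-fold threshold only 1 of the 2 miR-34 hairpins, miR-34c, was dominated by an arm, beside 189 of all 312 hairpins (241 at 4-fold). Between the libraries, 1 miR-34 arm was called by table totals, 2 with TMM scaling, 2 with DESeq2 scaling and 0 without a count minimum. Over all miRNAs, 198, 187, 189 and 183 were called in the same settings. Of all miRNAs called, those higher in replicate 2 rose from 59 to 107 with TMM and 101 with DESeq2 scaling, and those lower fell from 139 to 80 and 88, because both scalings centre the ratios near 0. The median of the p53-linked list was 87.2 CPM over its 9 arms with at least 10 counts in each library. No paired analysis was possible because the series has 1 group. Counts of 7 to 28 limit what can be said of miR-34a-5p, miR-34b-5p and miR-34c-3p.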
